A study of Homo sapiens with 6 samples.

Results

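NSG2, NSG1 and CALY encode the neuron-specific gene family, a small group of membrane proteins of endosomes. The family was chosen by the measured fall of NSG2 with IL-17A on these arrays, and NSG1 and CALY were taken in as its relatives whatever their values. All 3 genes, of 19740 genes named on the array through a RefSeq accession, were measured, by 4 of the 34127 probes. The values of NSG2 in this comparison are therefore given as a description without a test, while NSG1 and CALY carry the test of the fit across all probes. RNA came from SU-DHL-2, an established human cell line of diffuse large B-cell lymphoma, with no other cell line in the series. IL-17A is an inflammatory cytokine made by Th17 cells, and the study asked how it acts on the growth of lymphoma cells. The IL17A group was 3 samples cultured with IL-17A at 200 pg/ml for 72 h, and the control group was 3 samples cultured for the same 72 h without it. Each was hybridized to 1 Cy3-labeled Whole Human Genome array, whose signals are the brightness of a probe after background subtraction. The labels do not say that the samples were grown apart, so p-values measure the spread between these samples, which may be technical.

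In neurons, membrane proteins are taken up by clathrin-coated vesicles, pass into early endosomes and are then either returned to the surface by recycling endosomes or sorted to lysosomes. NSG1, also called NEEP21, sits in early and recycling endosomes of dendrites, where it takes part in the recycling of AMPA-type glutamate receptors together with the scaffold GRIP1 and the fusion protein syntaxin 13, the product of STX12. NSG2, formerly HMP19, is a related protein of neuronal vesicles and synapses. CALY encodes calcyon, which binds clathrin light chains and promotes the assembly of clathrin coats, and was first described as a partner of the dopamine receptor encoded by DRD1. The family is known for its expression in the nervous system, not in B cells.

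The promoters of 2 of the 3 members matched a RefSeq table of GRCh38.p14, with 2 starts for NSG1 and 1 for CALY. NSG2 was not matched. They are shown because NSG1 passed the test and CALY did not, with the 250 bases before each start printed 5′ to 3′ on the gene's strand. Capitals mark GGGCGG or its reverse complement CCGCCC, the GC box.

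NSG1 at chr4:4386282-4386531 (+): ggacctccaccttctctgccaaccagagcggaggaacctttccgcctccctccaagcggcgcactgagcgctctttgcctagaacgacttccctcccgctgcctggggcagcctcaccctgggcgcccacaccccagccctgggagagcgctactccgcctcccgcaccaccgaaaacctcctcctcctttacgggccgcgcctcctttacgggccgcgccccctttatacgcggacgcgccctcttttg

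NSG1 at chr4:4386852-4387101 (+): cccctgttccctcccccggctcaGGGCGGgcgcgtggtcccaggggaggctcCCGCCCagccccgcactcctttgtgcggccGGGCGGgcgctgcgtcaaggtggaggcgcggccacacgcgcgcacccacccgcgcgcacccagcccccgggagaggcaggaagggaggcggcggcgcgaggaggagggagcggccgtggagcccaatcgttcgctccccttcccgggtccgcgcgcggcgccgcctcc

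CALY at chr10:133336897-133337146 (-): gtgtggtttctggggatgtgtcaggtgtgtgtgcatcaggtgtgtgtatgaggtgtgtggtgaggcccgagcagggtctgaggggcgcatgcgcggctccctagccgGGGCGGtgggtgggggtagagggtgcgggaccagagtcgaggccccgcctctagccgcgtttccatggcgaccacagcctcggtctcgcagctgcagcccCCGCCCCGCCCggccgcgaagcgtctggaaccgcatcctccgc

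The GC box was found at 3 positions before the NSG1 start at chr4:4386852-4387101, at 3 before the CALY start and at none before the other NSG1 start. It was present in 42.6% of the 35116 promoters of the table. CG dinucleotides numbered 35 before the first of these NSG1 starts and 22 before each of the other starts, against a median of 11. On either strand, CCAAT was found at 1 position, before the CG-richest NSG1 start, and is held by 32.0% of promoters. TATAAA was found at 1 position, before the other NSG1 start, and is held by 10.7% of promoters. CACGTG was found before none of these starts and is held by 6.34%. These letters describe the windows and were not tested for binding of any factor.

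The labelled cell type was checked against marker genes. All 19 B cell markers, among them CD79A and MS4A1, were detected on all 6 arrays, PAX5 at a low log2 mean of 3.67 in the controls. Of 10 mesenchymal markers, 8 were detected on no array. Of 10 T cell markers, 9 had a tested probe and 8 were detected on all 6 arrays, the brightest being CD3G at a log2 mean of 6.63 in the controls. The mean log2 signal of the tested T cell markers was 4.19 to 4.21 on the IL-17A arrays and 4.35 to 4.59 on the control arrays, and their part in the results below was not tested. Of these 9 markers, 3 were higher and 6 lower with IL-17A. CD6, detected on only 2 control arrays and 1 IL-17A array, counts in this mean and among the lower, so that these figures are a description only. In RNA of bulk samples, fewer cells of a type and less RNA per cell cannot be told apart. Control arrays 1, 2 and 3 and IL-17A array 1 shared a scan time, and IL-17A arrays 2 and 3 shared another, so that scan and treatment overlap in part. With scan as a block or within the scan of both groups, fold changes therefore come from IL-17A array 1 alone against the controls. A changed result there cannot be told apart from the loss of IL-17A arrays 2 and 3.

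NSG2 fell with IL-17A and was the member with the largest difference. Its probe, for NM_015980, gave intensities of 547, 622 and 525 on the control arrays and 138, 169 and 149 on the IL-17A arrays. Every IL-17A array lay below every control array, as for 19.3% of all 14739 tested genes, and all 6 signals were well above background. After quantile normalization the log2 signals were 9.01, 9.37 and 9.08 in the controls and 7.09, 7.36 and 7.24 with IL-17A. The group means were 9.15 ± 0.19 (SD, n = 3) and 7.23 ± 0.14 (SD, n = 3). The difference on the log2 scale was -1.92 (standard error 0.12), so that 26.3% of the control signal remained, a fall of 3.80-fold. The gap between the lowest control and the highest IL-17A array was 1.65 on the log2 scale, against a range of 0.36 among the controls and 0.27 among the IL-17A arrays. The IL-17A array that shared a scan with the controls was the lowest of the 6, and within that scan the log2 difference was -2.07.

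**Figure D1:**
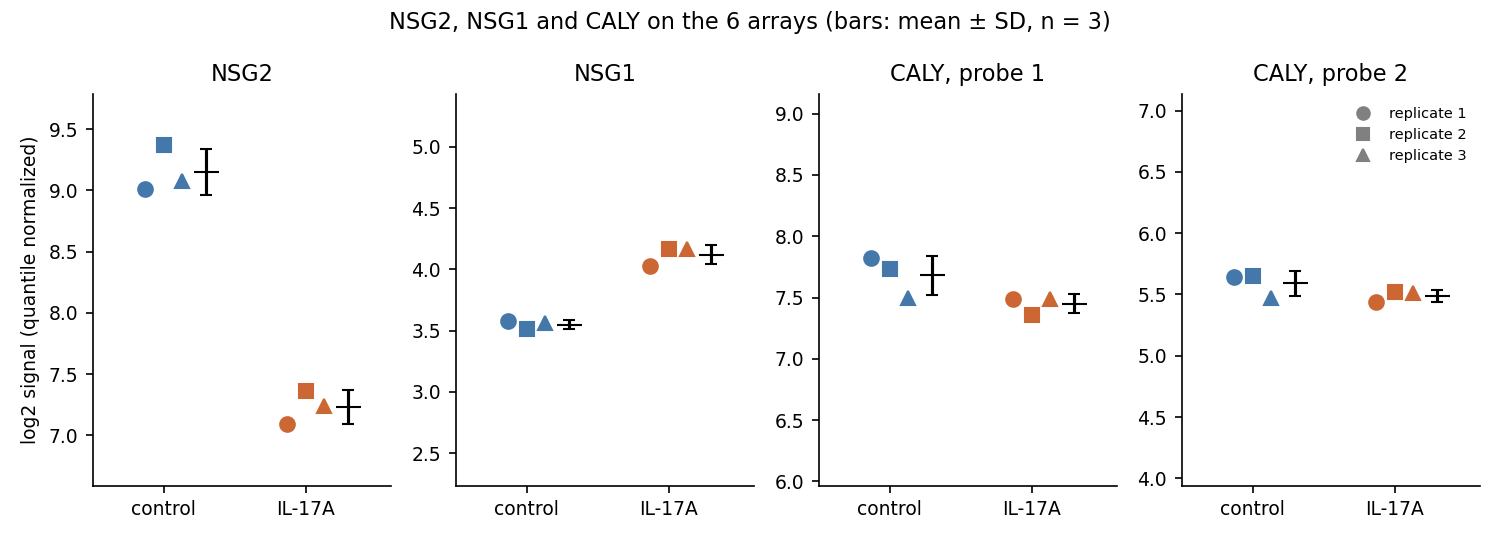
Log2 signals of the 4 probes of the family on each array, in panels that all span the same range, with controls in blue, IL-17A in orange, a marker shape for each replicate number and bars for mean ± SD (n = 3). NSG2 lies between 9.01 and 9.37 in the controls and between 7.09 and 7.36 with IL-17A, NSG1 is higher with IL-17A, and the values of CALY lie close together.

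Among the 22245 tested probes that were well above background on all 6 arrays, 1 had a lower log2 fold change than NSG2. Since NSG2 was chosen for its large fall on these arrays, this rank restates the choice and is a description only. That probe, for DLGAP4, differed by -2.05 on the log2 scale with a standard error of 1.78 (adjusted p = 0.470 from limma). The value came from IL-17A array 1, at 4.54, while the other IL-17A arrays read 10.92 and 10.85 and the controls 10.80 to 10.83. LDHC, at -1.62 (standard error 1.06, adjusted p = 0.344), also owed its place to IL-17A array 1, with 5.22 there against 9.03 and 8.97. EGFL7, which encodes a secreted protein of endothelial cells, came next at -1.57 (standard error 0.35, adjusted p = 0.0542). With scan as a block, which takes the fold change from IL-17A array 1 alone, DLGAP4 was at -6.28 and LDHC at -4.14.

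**Figure D2:**
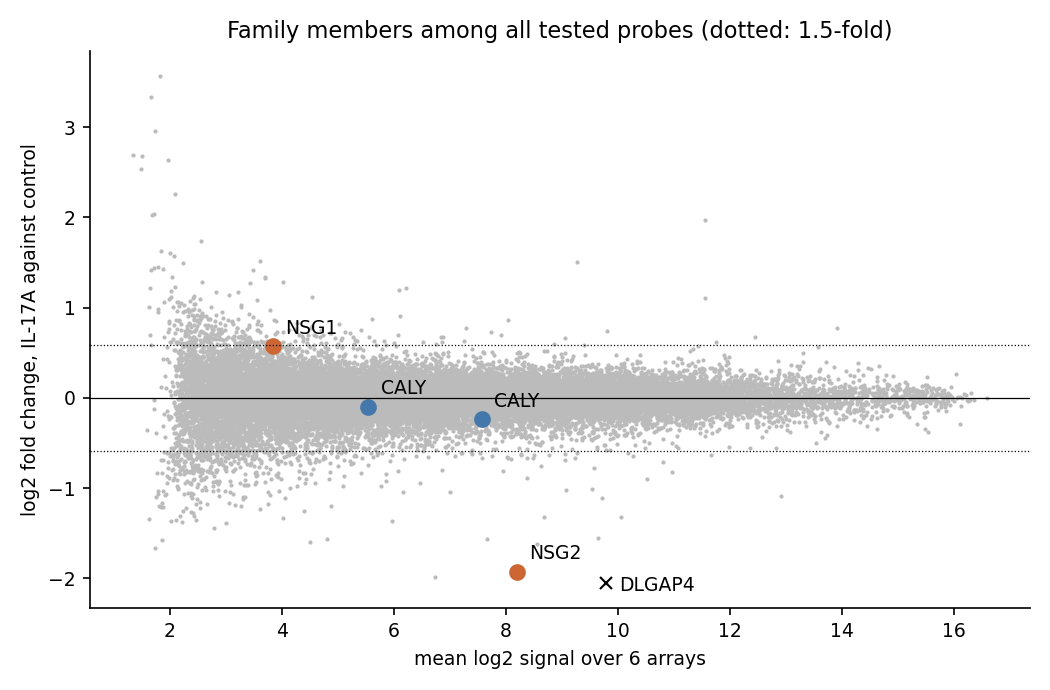
Log2 fold change of each tested probe against its mean log2 signal over the 6 arrays, with the probes of the family as large points, DLGAP4 as a cross and dotted lines at 1.5-fold. NSG2 lies at -1.92, NSG1 at 0.57 and the probes of CALY at -0.24 and -0.10.

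NSG1 rose with IL-17A, the direction opposite to that of NSG2. Its single probe, for NM_014392, was dim, with intensities of 12.9, 11.2 and 11.8 in the controls and 16.0, 18.0 and 17.5 with IL-17A. All 6 signals were well above background, for which the lowest accepted signal was 4.46 to 4.61 across arrays. The log2 signals were 3.58, 3.51 and 3.56 in the controls and 4.03, 4.17 and 4.17 with IL-17A, and the groups did not overlap. Groups also did not overlap for 21.4% of all 14739 tested genes in this direction and for 19.3% in the other. The means were 3.55 ± 0.04 (SD, n = 3) in the controls and 4.12 ± 0.08 (SD, n = 3) with IL-17A. The resulting log2 fold change, 0.57 (standard error 0.05), passed the test (95% confidence interval 0.44 to 0.71, adjusted p = 0.0243 from limma).

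An adjusted p under 0.05 was reached by 4.37% of genes in the higher direction and by 3.49% in the lower. The rise of NSG1 was 1.49-fold, just under the 1.5-fold that the study's methods use beside thresholds on p and on the false discovery rate. A change of at least 1.5-fold with an unadjusted p under 0.05 was reached by 0.807% of genes in the higher direction and by 1.11% in the lower. Within the scan that held both groups, the log2 fold change of NSG1 was 0.48, and with scan as a block it was also 0.48. These are the same estimate, of IL-17A array 1 alone against the controls, and not separate checks. With the replicate number as a block the adjusted p was 0.124 at the same 0.57. Under normexp background correction with an offset of 50, which compresses dim signals, the log2 fold change was 0.12 (adjusted p = 0.0474). The call at an adjusted p under 0.05 was lost without IL-17A array 2 or 3 or without control array 1 or 2, with log2 fold changes of 0.55, 0.55, 0.59 and 0.55. Over all 23936 probes, these settings left 3, 4, 2 and 8 calls, against 1826 as reported.

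CALY was measured by a pair of probes for the same accession, NM_015722, neither of which passed the test. The brighter gave 241, 199 and 173 in the controls and 182, 169 and 179 with IL-17A. Control array 3 read below IL-17A arrays 1 and 3 before normalization. After it, the log2 signals were 7.82, 7.73 and 7.50 in the controls and 7.49, 7.36 and 7.49 with IL-17A, so that the groups were apart by only 0.01. The means were 7.68 ± 0.16 (SD, n = 3) and 7.45 ± 0.08 (SD, n = 3), a log2 difference of -0.24 (standard error 0.09; unadjusted p = 0.0476, adjusted p = 0.155 from limma). The 95% confidence interval ran from 0.723-fold to 0.998-fold of the control. Without control array 3 the log2 fold change was -0.33, without control array 1 it was -0.17, and the adjusted p stayed above 0.05 in both.

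The dimmer CALY probe had the same direction, with log2 means of 5.59 ± 0.10 (SD, n = 3) in the controls and 5.49 ± 0.05 (SD, n = 3) with IL-17A. Its log2 fold change was -0.10 (standard error 0.06, adjusted p = 0.335), and its groups overlapped. The interval of 0.839-fold to 1.04-fold leaves room for a small change in either direction. The 3 members thus had log2 fold changes of -1.92, 0.57 and -0.24 at their brightest probes, against a median of 0.003 over all tested genes.

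**Figure D3:**
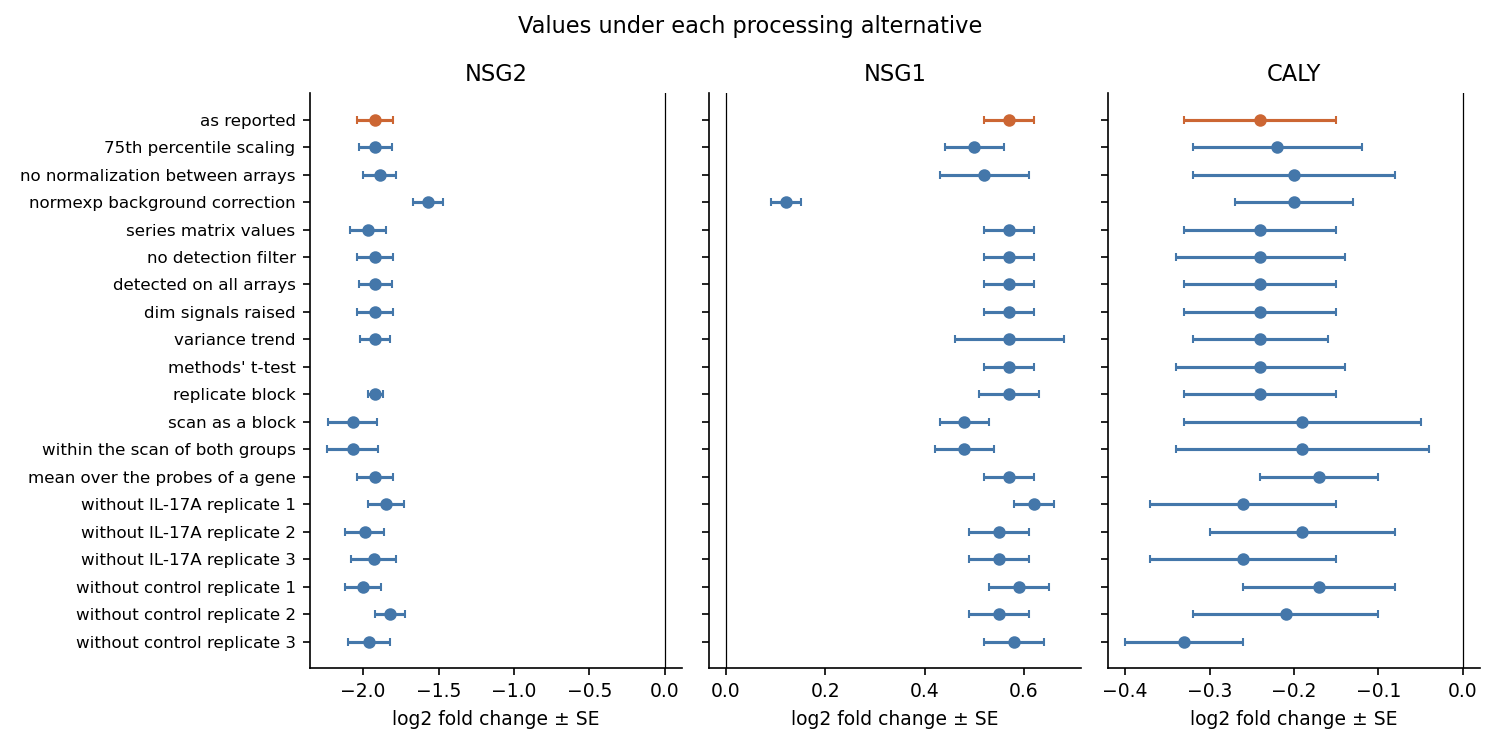
Log2 fold change ± standard error of NSG2, NSG1 and the brighter CALY probe as reported (orange) and under each alternative (blue), each panel with its own scale; NSG2 carries no test. Within a panel the points stay on 1 side of 0, and normexp background correction gives the smallest size for NSG2 (-1.57) and NSG1 (0.12).

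The genes that carry endosomal traffic were examined with lists of clathrin coat, endosome and sorting genes. Of 88 genes, 82 had a tested probe, 5 were higher and 1 lower at an adjusted p under 0.05, and none changed by 1.5-fold. Together these were 7.32% of the genes tested, against 7.86% of all 14739 tested genes in either direction, so that the list was at the background. The log2 fold changes ran from -0.27 to 0.33, with a median of 0.00, and the median size was 0.09 against 0.11 over all genes. With scan as a block, with the replicate block or with any 1 array left out except control array 3, the count was 0, and without control array 3 it was 1. Over all 23936 probes, calls fell from 1826 to 48 with scan as a block and to 4 with the replicate block. They fell to 975 without control array 3 and to between 2 and 68 without any 1 of the other arrays.

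Among the clathrin coat and adaptor genes, 2 of 30 were higher and 1 lower, together 10.0%, against 7.86% of all tested genes in either direction. CLTB, a clathrin light chain and so of the kind that calcyon binds, was lower with IL-17A (log2 difference -0.27, adjusted p = 0.0492), from 8.35 ± 0.02 (SD, n = 3) to 8.08 ± 0.09 (SD, n = 3). The other light chain, CLTA, had a log2 fold change of -0.13 (adjusted p = 0.154). The heavy chain CLTC was measured near the background, on 2 IL-17A arrays and 1 control array. Of the AP-3 adaptor, which also binds calcyon, the small subunit AP3S1 rose by 0.27 (adjusted p = 0.0315), with 3 probes in the same direction, while the delta subunit AP3D1 was at -0.02. AP1S3, a small subunit of AP-1, rose by 0.33 (adjusted p = 0.0475).

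Of the early and recycling endosome genes, 1 of 34 passed the test, or 2.94%, against 7.86% of all tested genes in either direction. RAB11FIP1, an effector of the recycling GTPase RAB11, rose by 0.20 on the log2 scale (adjusted p = 0.0415). STX12, the syntaxin partner of NSG1, had log2 means of 9.91 ± 0.08 (SD, n = 3) in the controls and 10.16 ± 0.10 (SD, n = 3) with IL-17A, a difference of 0.24 (adjusted p = 0.0857). GRIPAP1, which links the GRIP1 scaffold to endosomes, was at 0.02. Of the retromer and sorting genes, 2 of 18 passed, or 11.1%, against the same 7.86%. SNX2, a sorting nexin of retromer, rose by 0.26 (adjusted p = 0.0328), and the sorting receptor SORL1 by 0.25 (adjusted p = 0.0456), whereas SORT1, a related receptor, was at -0.02.

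The neuronal cargo and scaffolds of these proteins were in part silent on the arrays. Of 15 genes, 9 had a tested probe, 1 was higher and 1 lower at an adjusted p under 0.05, against 7.86% of all tested genes in either direction, and 6 were detected on no array, among them GRIA1, GRIA2 and GRIA3, which encode AMPA receptor subunits, and DRD1. GRIA4, the remaining AMPA receptor subunit, was lower with IL-17A at -0.36 on the log2 scale (adjusted p = 0.0475, standard error 0.07), from 7.02 ± 0.12 (SD, n = 3) to 6.66 ± 0.06 (SD, n = 3). PICK1, which binds AMPA receptor subunits, rose by 0.22 (adjusted p = 0.0467). Both calls were lost with scan as a block and with the replicate block. With 1 array left out, PICK1 lost its call each time, and GRIA4 kept it only without control array 3. Calls over all 23936 probes, 1826 as reported, were 48 with scan as a block and 4 with the replicate block. They were 975 without control array 3 and between 2 and 68 without any 1 of the other arrays. GRIP1 lay near the background, detected on 3 control arrays and 1 IL-17A array, so that it was tested through the controls and no fold is given. APP, the amyloid precursor protein, had a log2 fold change of 0.37 (adjusted p = 0.202).

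General neuronal genes, such as those of synapses and neurofilaments, gave no calls. Of 31 genes, 13 were detected on no array and 16 were tested, with 11 higher, 5 lower and none at an adjusted p under 0.05 by limma, against 7.86% of all tested genes. An unadjusted p under 0.05 was reached by 9 of the 16 genes and by 31.7% of all tested genes. By the methods' t-test none passed after adjustment either, against 1245 of all 23936 probes. With a variance trend in limma 4 passed, against 3851 of all 23936 probes. RBFOX3, a neuronal splicing factor, and SYT1, a synaptic vesicle protein, were each detected on all 3 IL-17A arrays and on 1 control array, so that they were tested through the IL-17A group and no fold is given. INA, a neuronal intermediate filament, was at -0.62 (adjusted p = 0.149). The mean log2 signal over the 16 genes was 5.58 to 5.63 on the IL-17A arrays and 5.37 to 5.58 on the control arrays. RBFOX3 and SYT1 count in this mean, among the genes higher with IL-17A and among those with an unadjusted p under 0.05. These figures therefore lean toward the IL-17A group and are a description only.

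**Figure D4:**
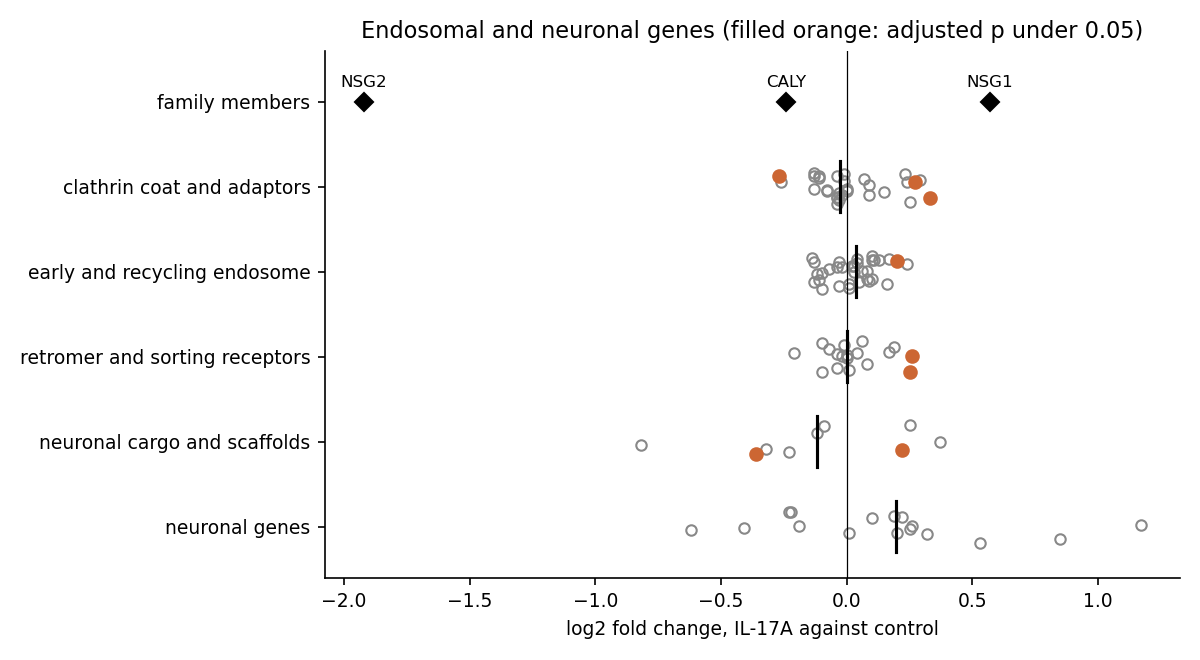
Log2 fold changes of the family members at their brightest probes (diamonds) and of the tested genes of 5 lists (circles, orange where the adjusted p is under 0.05), with the list median as a bar. The endosomal lists lie between -0.27 and 0.33, inside the span from NSG2 at -1.92 to NSG1 at 0.57.

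The genes with values most like those of NSG2 were sought by the root mean square difference of log2 signals, each gene centred on its mean over the 6 arrays. CYCSP52, a pseudogene, was closest at 0.42, followed by DNAJC22 at 0.43, EGFL7 at 0.47, ADGRL2 at 0.48 and GASK1B at 0.48. Their log2 fold changes were -1.23, -1.13, -1.57, -1.36 and -1.11, all smaller in size than that of NSG2. CYCSP52, DNAJC22 and GASK1B were dim, with control means of 4.22, 3.86 and 4.62, and ADGRL2 was the brightest at 6.65. Likeness was measured on the same 6 arrays by which NSG2 was chosen, so that it is a description only. Within the scan of both groups, EGFL7 and ADGRL2 had log2 differences of -0.95 and -0.75, while DNAJC22 and GASK1B were both at -1.09 and CYCSP52 at -1.59.

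**Figure D5:**
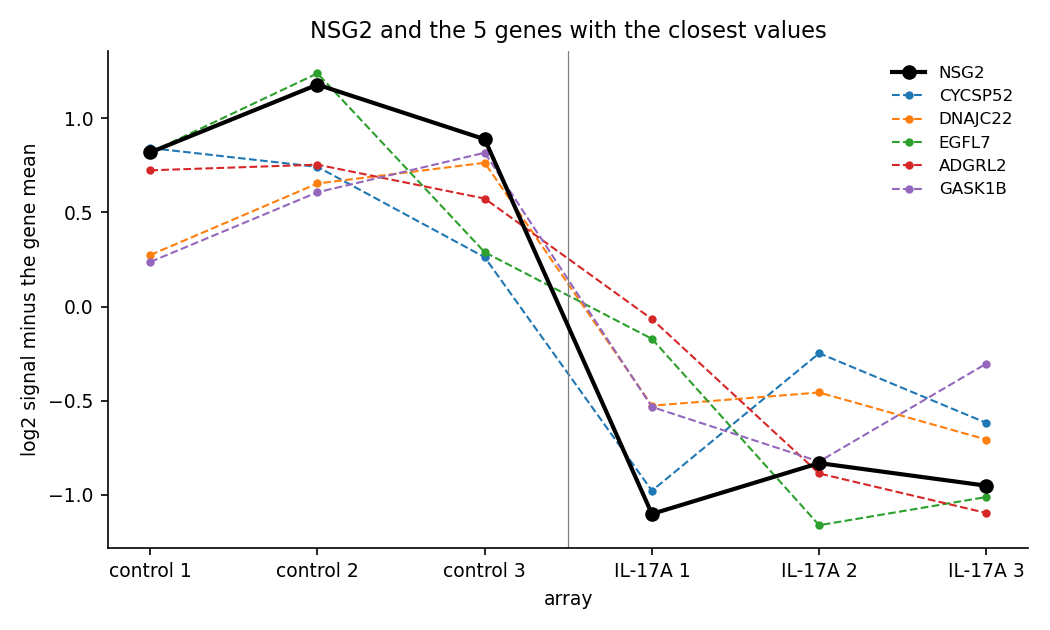
Log2 signal minus the gene's mean on each array for NSG2 (black) and the 5 genes with the closest values, with the controls on the left; lines join the values of a gene and imply no order of the arrays. IL-17A array 1 is the lowest of NSG2 and CYCSP52 and the IL-17A array closest to the controls for EGFL7 and ADGRL2.

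Of the nearest genes on the chromosome that have a probe, 3 on each side of a member, none of those tested changed by 1.5-fold. On 1 side of NSG2, BOD1 was at 0.00 and CPEB4 at -0.15 (adjusted p = 0.157), and C5orf47 was well above background on no array. On the other side, MSX2 and DRD1 were well above background on no array and SFXN1 had a log2 fold change of 0.27 (adjusted p = 0.0652). Beside NSG1, MSX1, a homeobox gene, rose by 0.34 (standard error 0.07, adjusted p = 0.0441), from 3.78 ± 0.11 (SD, n = 3) to 4.12 ± 0.03 (SD, n = 3). With scan as a block, on IL-17A array 1 alone against the controls, the MSX1 log2 fold change was 0.35. STX18, TMEM128 and ZBTB49 were at 0.05, 0.05 and 0.08, LYAR was at -0.11 (adjusted p = 0.0923), and CYTL1 was well above background on no array. Beside CALY, ADAM8, a membrane protease, rose by 0.40 (standard error 0.05, adjusted p = 0.0326). With scan as a block, again on IL-17A array 1 alone, the ADAM8 log2 fold change was 0.38. PRAP1 was at -0.28 (adjusted p = 0.0501) and FUOM at -0.19 (adjusted p = 0.0579), in the direction of CALY. ZNF511, TUBGCP2 and ECHS1 were at 0.09, 0.10 and -0.03.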

How the data were processed

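Per the file headers, the authors scanned 1-colour arrays (annotated on hg19) and extracted an intensity per spot with Agilent Feature Extraction 11.0.1.1, background subtracted and not normalized between arrays. The files also hold flags and median intensities of spot and background. A further deposited table gives log2 values quantile normalized by the authors, with 10022 to 10455 probes at the lowest value of an array.

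Control spots and spots with outlier flags were left out, intensities below 1 were set to 1, and log2 values of replicate spots were averaged per probe. Arrays were quantile normalized, and the 23936 probes detected (positive, significant and well above background) on at least 3 of 6 arrays were tested with limma 3.58.1 in R 4.3.3, two-sided, without covariates, with Benjamini-Hochberg adjustment over all of them. The sources used here do not name the columns behind the methods' flag Detected. Genes were named through GRCh38.p14 accessions and represented by their brightest tested probe. The genes closest to NSG2 and the next falls were instead given by the probe that placed them there. The number of arrays limits the precision, and between 3320 and 4002 of the 43118 spots per array were below 1.

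Members and lists were chosen with earlier results of these data known. Named were the members, listed partners, up to 3 genes per list by p, the 5 genes closest to NSG2, the 3 next falls and the 3 nearest genes on each side of a member. The fit was tested on simulated data. Same-numbered samples did not deviate together, with correlations of -0.0863, -0.0024 and -0.0469, so the numbers were taken as names, and the block on them is an alternative only.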

Additional observations from a re-analysis of the deposited data

How the results depend on the processing

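The fall of NSG2 kept its direction under every alternative run. Since NSG2 was chosen for its fall on these same arrays, this is a description only. Its log2 fold change was -1.57 with normexp background correction and between -2.07 and -1.89 under the other alternatives that keep all arrays or a scan. It lay between -2.0 and -1.82 when 1 array was left out. NSG1 stayed higher with IL-17A but lost its call without normalization (0.52) and with the replicate block (0.57). It was at 0.48 with scan as a block and within the scan of both groups, from IL-17A array 1 alone against the controls. NSG1 ranged from 0.55 to 0.62 when 1 array was left out. CALY reached an adjusted p of 0.05 under none of the alternatives. Over all 23936 probes, 1826 calls as reported became 4 with the replicate block and 48 with scan as a block. Calls numbered 46 without normalization, 1372 with 75th percentile scaling, 1245 with the methods' t-test and 3851 with a variance trend. With 1 array left out they numbered 2 to 975. Normexp gave 2047 of 23898 probes, no detection filter 1410 of 34126, and the mean over probes 1714 of 14739 genes. Of 82 endosomal machinery genes, 6 were called as reported, 3 with 75th percentile scaling, 0 without normalization, 18 with a variance trend, 0 with the replicate block, with scan as a block or within the scan, and 0 to 1 with 1 array left out. Of 25 neuronal genes and cargo, 2 were called as reported, 1 with 75th percentile scaling or the methods' t-test, 0 without normalization, without a detection filter, with the replicate block, with scan as a block or within the scan, 5 with normexp, 7 with a variance trend, 4 with the mean over probes, and 0 to 2 with 1 array left out. The causes were not tested. Of 825 values of 44 other named genes under the alternatives, 570 kept direction and side of the threshold, 200 lost their call, 30 gained one and 25 changed sign. Among the last, CLTC was at 0.00 with normexp, 0.05 with the authors' normalized values, 0.06 with dim signals raised, 0.27 with scan as a block or within the scan, and -0.14 to 0.18 with 1 array left out. Without normalization, AP3D1 and SORT1 were at 0.02 and ECHS1 at 0.01. With scan as a block or within the scan, BOD1 and TMEM128 were at -0.02 and ECHS1 at 0.03. With 1 array left out, the DLGAP4 log2 fold change ran from -3.12 to 0.07, GRIPAP1 from -0.02 to 0.06, AP3D1 from -0.06 to 0.01, SORT1 from -0.06 to 0.02, BOD1 from -0.03 to 0.02 and ZBTB49 from -0.02 to 0.16. Signals near background limit NSG1, MSX1, CLTC, GRIP1, SYT1, RBFOX3, CD2, CD3E, CYCSP52, DNAJC22 and GASK1B, among others, and 3 arrays a group limit all values.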

Other observations

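Outside the family, the markers used to check the cell type were examined gene by gene. TNFRSF13B, a receptor of B cells, had a log2 mean of 5.37 ± 0.09 (SD, n = 3) with IL-17A against 4.88 ± 0.14 (SD, n = 3) without (adjusted p = 0.0403 from limma), 1 of 19 B cell markers with an adjusted p under 0.05, or 5.26%, against 7.86% of all tested genes. Of 9 tested T cell markers, 2 were lower at an adjusted p under 0.05, or 22.2%. Among all tested genes the share was 7.86% in either direction and 3.49% in the lower. CD28 fell by 0.71 on the log2 scale (adjusted p = 0.0328) and CD3E fell by 0.46 (adjusted p = 0.04). CD3E was dim, with log2 means of 3.24 in the controls and 2.78 with IL-17A. With scan as a block, on IL-17A array 1 alone against the controls, the log2 fold changes were 0.45 for TNFRSF13B, -0.51 for CD28 and -0.36 for CD3E. CD2 lay in the other direction at 0.51 (adjusted p = 0.0539), as did CD3G at 0.12 and CD7 at 0.06. The remaining 7 tested T cell markers did not reach an adjusted p of 0.05.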
